A study of Bubalus bubalis with 6 samples.

Results

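The genes described here encode the mitochondrial respiratory chain, its ATP synthase, the synthesis of coenzyme Q and the protein import channels of mitochondria. They were chosen by name alone, as every gene name of the array that begins with NDUF, SDHA to SDHD, UQCR, COX and a digit, ATP5, TIMM, TOMM, or COQ and a digit. The rule found 77 of 7932 gene names and 187 of 177440 probes. One of them, COX4NB, matched by its name alone, because it encodes a subunit of a membrane complex of the endoplasmic reticulum.

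The samples were sperm of 6 water buffalo (Bubalus bubalis) bulls, 3 labelled high-fertile (bulls 2, 3 and 5) and 3 labelled subfertile (bulls 1, 4 and 5). Their DNA came from frozen semen and no treatment or age was labelled for either group, nor how fertility was scored. Sheared DNA was pulled down with an antibody against 5-methylcytosine (IP DNA) and read in red, against the same bull's input DNA in green, on a 2-colour array built for buffalo CpG islands and promoters. Each bull was measured on 1 array, the dyes were never swapped, and the comparison of the fertility groups is the one the study was designed for.

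The respiratory chain passes electrons from NADH and succinate through complexes I, II and III to oxygen at complex IV, and coenzyme Q carries them between the first complexes. The proton gradient so built drives ATP synthase. Most subunits are encoded in the nucleus, so their proteins enter mitochondria through the TOM channel of the outer membrane and the TIM complexes of the inner one. In sperm the mitochondria are wrapped around the midpiece of the tail. Promoters of widely expressed genes often lie in CpG islands, which are mostly unmethylated in the male germ line.

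A level here is log2(IP/input), set to 0 at the median of all probes of that array. Within an array it sets regions in order of antibody-bound DNA relative to input. The share of cytosines that carry a methyl group cannot be read from it. That order hardly carried over between the scan sessions described below, so a mean over the bulls gives no order common to all arrays. Testing was limited to probes with input well above background on every array, which left 87 probes in 51 of these genes, of 110771 tested probes and 4290 named genes on the whole array. A gene's level is the mean of its tested probes. That mean rests on 1 probe for 29 genes, on 2 for 13 and on 3 or more for 9, so most gene values describe 60 bases and their surrounding fragment.

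Coverage differed between the roles. Roles follow the gene names, so NDUFA4L2, a paralog of a complex IV subunit, is counted under complex I and COX4NB under complex IV. Tested genes numbered 16 of 20 for complex I, 2 of 4 for complex II, 2 of 5 for complex III, 9 of 15 for complex IV, 10 of 14 for ATP synthase, 3 of 7 for coenzyme Q and 9 of 12 for protein import. Complex II was represented by its assembly factors SDHAF1 and SDHAF2, while its iron-sulfur subunit SDHB and membrane anchor SDHC had no tested probe. The other untested genes were ATP5A1, ATP5G3, ATP5L, ATP5O, COQ10A, COQ3, COQ7, COQ9, COX16, COX4I1, COX5B, COX6A2, COX6B1, COX7B, NDUFA12, NDUFB5, NDUFS5, NDUFV2, TIMM8B, TOMM20, TOMM22, UQCR10, UQCR11 and UQCRB.

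The sequences that carry the results are the deposited 60-base probes, printed as the array lists them in lower case with every CpG, the site at which cytosine is methylated, in capitals. Coordinates are those of the probe names. Their genome build is not given in the sources used, and neither the strand nor an exon or promoter class was listed. The first set holds the probes whose 3 high-fertile and 3 subfertile bulls did not overlap.
TIMM9 at chr10:72691912-72691971: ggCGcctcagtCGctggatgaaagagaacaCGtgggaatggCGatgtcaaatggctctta
TIMM9 at chr10:72691932-72691991: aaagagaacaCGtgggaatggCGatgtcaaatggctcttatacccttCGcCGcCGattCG
ATP5D at chr7:42704542-42704601: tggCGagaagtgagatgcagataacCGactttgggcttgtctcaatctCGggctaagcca
TIMM22 at chr19:21894907-21894966: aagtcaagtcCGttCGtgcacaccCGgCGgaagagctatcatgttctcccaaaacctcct
TOMM40 at chr18:52404306-52404365: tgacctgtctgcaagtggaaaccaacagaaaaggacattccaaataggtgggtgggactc

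The second set holds 1 probe from each of 5 genes that passed the test between the 2 scan sessions described below. The first 3 hold no CpG and read lower in the later session, of which UQCRFS1 had no IP DNA well above background in the first one; the last 2 hold several and were higher.
COQ2 at chr6:101821197-101821256: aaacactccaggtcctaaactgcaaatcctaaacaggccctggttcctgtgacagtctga
UQCRFS1 at chr14:29949502-29949561: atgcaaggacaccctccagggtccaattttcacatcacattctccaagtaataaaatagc
ATP5B at chr5:61357796-61357855: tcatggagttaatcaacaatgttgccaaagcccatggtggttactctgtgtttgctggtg
COX6B2 at chr18:62516176-62516235: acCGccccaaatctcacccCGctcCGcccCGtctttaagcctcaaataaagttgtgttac
NDUFV1 at chr29:47422989-47423048: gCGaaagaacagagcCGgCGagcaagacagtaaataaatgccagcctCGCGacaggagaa

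The arrays parted by scan date, and this touches every result below. By the dates in the file headers, subfertile bull 4 was scanned together with high-fertile bulls 2 and 3, here the first session. Subfertile bulls 1 and 5 and high-fertile bull 5 were scanned on 2 later dates, here the later session. Of these, subfertile bull 1 had a date of its own, another protocol name and the same slide as the first-session arrays. High-fertile bull 5 and subfertile bull 5 shared the last date and another slide. Each session also holds different bulls, so a session change cannot be told apart from a difference between bulls. Across the 51 genes, arrays of the same session correlated at 0.38 to 0.91 and arrays of different sessions at 0.01 to 0.11; over all 4290 genes these ranges were 0.48 to 0.78 and -0.21 to 0.10. Genes are not independent replicates, and these correlations are a description. IP DNA was well above background at 50, 75 and 67 of the 87 tested probes in the first session (high-fertile 2 and 3, subfertile 4). In the later session it was so at 79, 86 and 81 (high-fertile 5, subfertile 1 and 5).

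Averaged over the 6 bulls, sperm DNA of the respiratory chain genes carried antibody-bound DNA close to the level of the array's other genes. The median gene level over the 6 bulls was -0.16, against -0.14 for all genes tested. On single arrays this did not hold. The members' median less that of all genes was -0.11, -0.19 and -0.15 on the first-session arrays (high-fertile 2 and 3, subfertile 4). On the later ones it was 0.10, 0.13 and 0.05 (high-fertile 5, subfertile 1 and 5). The mean was below 0 in 32 genes, or 62.7%, against 64.3% of all genes. In 8 genes all 6 bulls lay below 0 and in 4 genes all 6 lay above it; among all genes tested these shares were 18.8% and 3.22%.

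**Figure D1:**
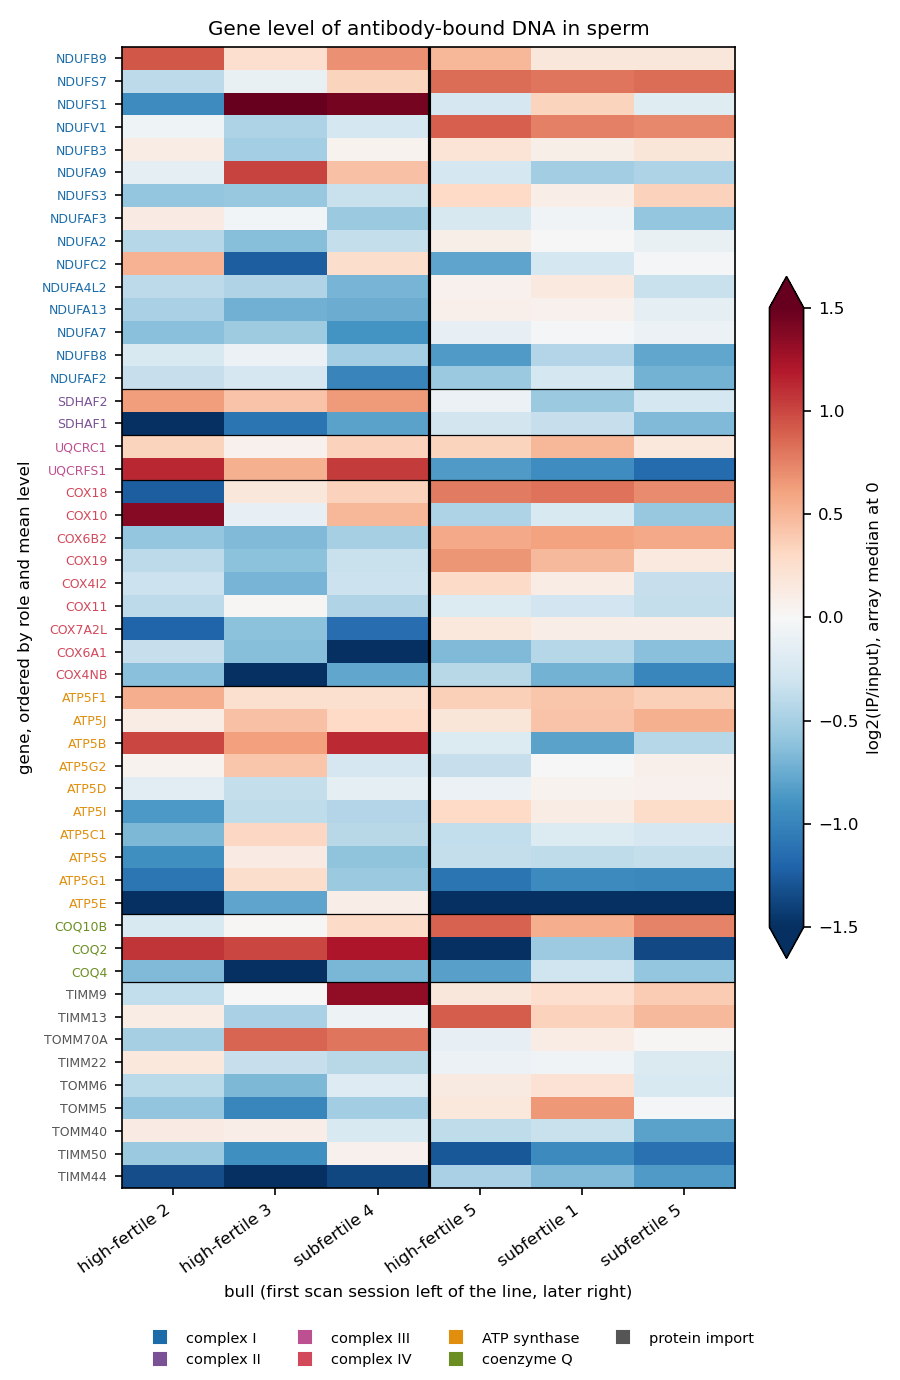
Level of 50 of the 51 tested genes (rows, by role and then by mean) in each of the 6 bulls (columns), as log2(IP/input) with the array median at 0; colours end at -1.5 and 1.5. The black line parts the first from the later scan session: COQ2 and ATP5B change from red to blue across it, and COX6B2, COX7A2L and NDUFV1 from blue to red.

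The highest means belonged to an accessory subunit of complex I, NDUFB9, at 0.45 ± 0.31 (SD, n = 6 bulls), and to the core iron-sulfur subunit NDUFS7 at 0.38 ± 0.53. Next came COQ10B, which encodes a coenzyme Q-binding protein, at 0.38 ± 0.43, and ATP5F1, the stalk subunit b of ATP synthase, at 0.36 ± 0.11. These 4 means lay within the SD of 1 another, so their order is not resolved. NDUFB9 was above 0 in all bulls: the high-fertile bulls 2, 3 and 5 read 0.93, 0.26 and 0.50 and the subfertile bulls 1, 4 and 5 read 0.18, 0.69 and 0.17. ATP5F1 lay between 0.23 and 0.54. In the first session the IP DNA of NDUFB9 and of NDUFS7 was well above background on 1 of 3 arrays and that of ATP5F1 at 2 of 6 spots, so their levels there are partly bounds. COQ10B was well above background on every array.

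The lowest means were ATP5E, the epsilon subunit of ATP synthase, at -1.75 ± 1.19, and TIMM44, which anchors the import motor to the inner membrane, at -1.07 ± 0.48. COX4NB followed at -0.84 ± 0.38 and COQ4, a scaffold of coenzyme Q synthesis, at -0.84 ± 0.59. ATP5E rests on 1 probe whose IP DNA was not well above background on any array, so its value is a bound and its place in the order is uncertain. TIMM44 was below 0 in all bulls, from -1.72 to -0.49. COX4NB and COQ4 were also below 0 in all bulls, and the range of COQ4 was set by high-fertile bull 3 at -1.98, with the other bulls between -0.82 and -0.30.

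Probes of 1 gene did not always share a level. NDUFS1, the largest core subunit of complex I, had a pair of tested probes 26068 bp from first to last base, with means of 1.18 and -0.51. The higher probe, at chr2:99542160-99542219, read 1.17, 3.01 and -0.26 in high-fertile bulls 2, 3 and 5 and 0.60, 2.60 and -0.04 in subfertile bulls 1, 4 and 5. Both of the values above 2 came from the first session. TOMM40, the pore of the outer membrane, spanned 390 bp and its 3 probe means ran from -1.17 to 0.33. Over the 22 genes with more than 1 tested probe, the median range between probe means was 0.50.

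No gene passed the test between high-fertile and subfertile bulls. With limma's test over all 4290 genes and Benjamini-Hochberg adjustment, 0 of the 51 genes passed an adjusted p of 0.05, and the background was 0% of all genes. At an unadjusted p of 0.05 the count was also 0 of 51, against 0.793% of all genes. The median difference, high-fertile minus subfertile, was -0.11, against -0.02 over all genes; 20 differences were above 0 and 31 below, and 47.8% of all genes were above. With the scan session as a block the median was 0.03 (all genes -0.03). Within the first session it was -0.12 (all genes -0.07) and within the later session 0.02 (all genes 0.00). Since p-values do not show equality, the intervals matter: the 95% interval of the difference lay within -1 to 1 for 20 of 51 genes, and for 40 with the session as a block.

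**Figure D2:**
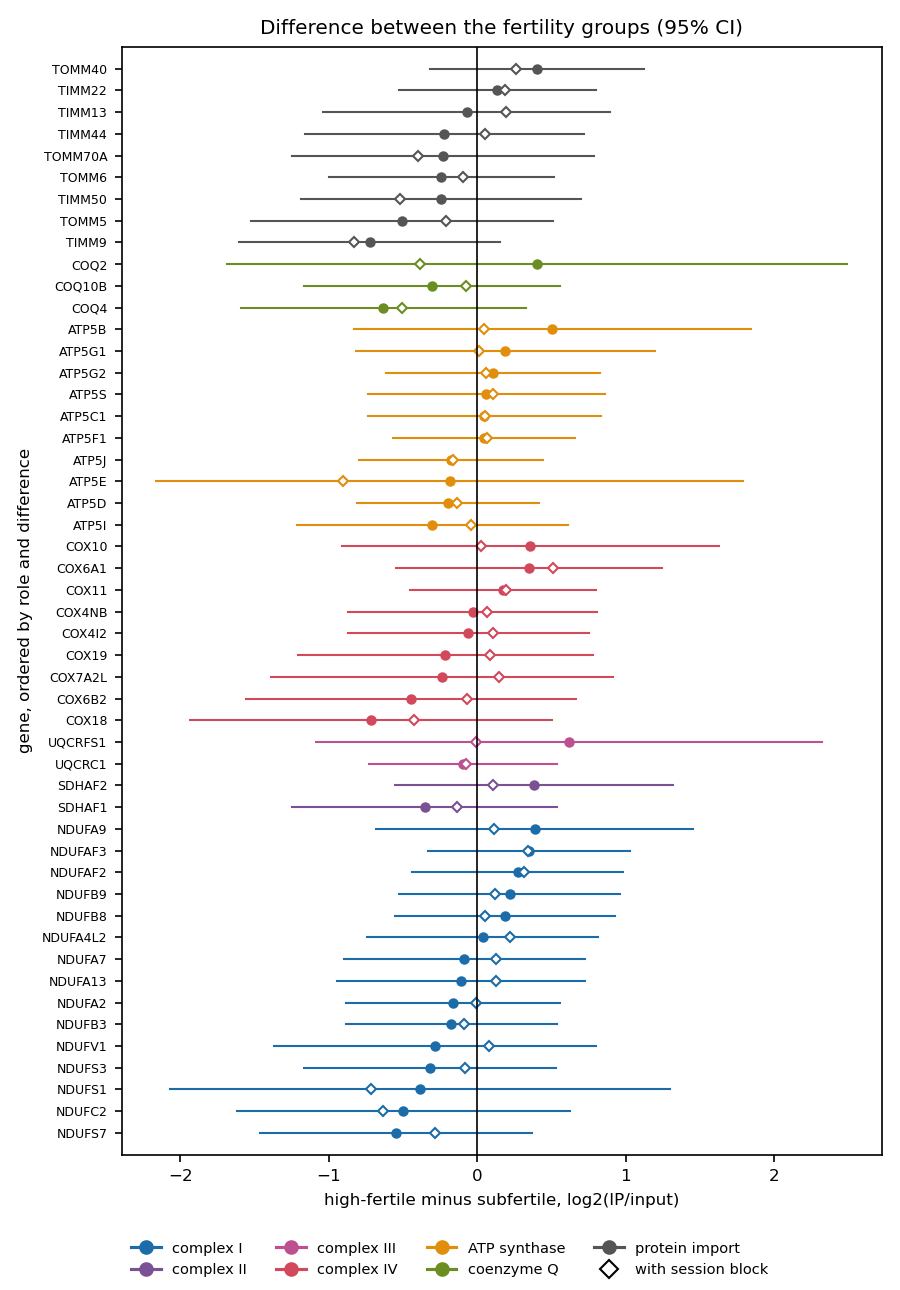
Difference in level between the groups (high-fertile minus subfertile, log2 scale) for 50 of the 51 genes, ordered by role and size; dots and lines are the estimate and 95% interval of the fit with group alone, and open diamonds the estimate with the scan session as a block. Every interval of the fit with group alone covers 0; TIMM9 and COX18 have the lowest dots, at -0.72 for both, and the high-lying dot of UQCRFS1 rests on high-fertile bulls whose IP DNA was not well above background.

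Among complex I genes, 6 of 16 differences were above 0 and the role's median was -0.14. Differences with the smallest p were those of NDUFS7, at -0.54 (SE 0.39), of the assembly factor NDUFAF3, at 0.35 (SE 0.29), and of the accessory subunit NDUFC2, at -0.50 (SE 0.48). The IP DNA of NDUFC2 was well above background on no array of the first session, and with normexp background correction its difference was -0.0069. NDUFS7 was -0.39, -0.11 and 0.83 in high-fertile bulls 2, 3 and 5 and 0.80, 0.34 and 0.84 in subfertile bulls 1, 4 and 5. The groups overlapped, and in the later session alone the difference was 0.02. NDUFAF3, measured by 4 probes, was 0.13, -0.04 and -0.24 in high-fertile and -0.06, -0.56 and -0.58 in subfertile bulls in the same order, which also overlap. The core subunit NDUFS3 and the accessory subunit NDUFA13, each with 3 probes, differed by -0.32 (SE 0.36) and -0.11 (SE 0.36). For NDUFA13 the sign turned with the session as a block, at 0.13.

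Complexes II and III gave 4 tested genes. SDHAF1, which helps to place iron-sulfur clusters in complex II, differed by -0.35 (SE 0.38), and SDHAF2, needed to attach its flavin cofactor, by 0.38 (SE 0.40). IP DNA of SDHAF2 was well above background on 3 of 6 arrays. SDHAF1 was below 0 in every bull, from -1.51 to -0.28. UQCRC1, a core subunit of complex III, was above 0 in every bull, from 0.06 to 0.50, and differed by -0.09 (SE 0.27). UQCRFS1, the Rieske iron-sulfur subunit, had the wide estimate of 0.62 (SE 0.72), and its IP DNA was well above background in no high-fertile bull and in 2 subfertile bulls, so no fold is given.

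In complex IV, 3 of 9 differences were above 0. COX18, which helps insert a core subunit of cytochrome oxidase into the membrane, differed by -0.72 (SE 0.52). Its levels were -1.24, 0.18 and 0.78 in high-fertile and 0.81, 0.35 and 0.71 in subfertile bulls, so high-fertile bull 2 stood lowest and the groups overlapped. IP DNA was well above background on 1 of 3 arrays of the first session. Within the later session its difference was 0.02. The 6 unnamed tested probes within 1000 bp of it were each lower in high-fertile bulls, as were 61.4% of all tested probes. Their mean was -0.47, 0.17 and 0.59 in high-fertile and 0.64, 0.63 and 0.67 in subfertile bulls, without overlap. NDUFC2 had 2 such neighbours, both higher in high-fertile bulls and without overlap in their mean, while its own difference was -0.50. NDUFB3 had 4, all lower in high-fertile bulls and without overlap in their mean, and its own difference was -0.17. For every other member with such neighbours their mean overlapped between the groups. The share of such non-overlap over all genes of the array was not computed. These neighbour values are therefore a description and lend no weight to the genes' own differences. Nearby probes can be covered by the same sheared fragments and are not independent of the gene's own probe.

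COX6B2, the testis form of subunit 6B, differed by -0.45 (SE 0.47), by -0.065 with the session as a block and by -0.014 within the later session. Without 1 bull at a time its difference ran from -0.84 (without high-fertile bull 5) to -0.22 (without high-fertile bull 3). For COX6A1, the form of subunit 6A found outside muscle, the difference was 0.35 (SE 0.38). COX4I2, an isoform of subunit 4 known from lung, differed by -0.06 (SE 0.35). The COX6A1 value rests on subfertile bull 4, at -1.64 with the other bulls between -0.66 and -0.35; without that bull the difference was -0.02. COX4NB differed by -0.03 (SE 0.36).

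In ATP synthase, 6 of 10 differences were above 0. The catalytic beta subunit gene ATP5B differed by 0.51 (SE 0.57), ATP5I, a subunit of the dimer interface, by -0.30 (SE 0.39), and ATP5D, the delta subunit, by -0.19 (SE 0.26). ATP5D had 6 tested probes, the most of the genes described here, over 2005 bp. Its first probe, at chr7:42704542-42704601, read -0.93, -0.70 and 0.36 in high-fertile and 0.70, 0.45 and 0.63 in subfertile bulls. The groups did not overlap there, and the difference was -1.01 (SE 0.38, unadjusted p = 0.0232 in limma). It did not pass the adjustment over 110771 probes, at an adjusted p of 0.99998. The 5 other ATP5D probes differed by -0.16 to 0.18 and their groups overlapped.

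Coenzyme Q genes were few. COQ4 differed by -0.63 (SE 0.41) and COQ10B by -0.30 (SE 0.37). COQ2, the enzyme that joins the side chain to the ring of coenzyme Q, differed by 0.41 (SE 0.89), the widest error of the genes described here, and by -0.38 with the session as a block.

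The import genes held the smallest p of all 51 genes. TIMM9, a small chaperone that guides carrier proteins through the space between the membranes, was -0.37, 0.01 and 0.17 in high-fertile bulls 2, 3 and 5 and 0.26, 1.33 and 0.39 in subfertile bulls 1, 4 and 5. All 3 subfertile bulls lay above all 3 high-fertile bulls. This was the only gene of the 51 whose groups did not overlap, or 1.96%, against 3.87% of all genes. The difference was -0.72 (SE 0.37, 95% interval -1.60 to 0.16, unadjusted p = 0.0936 in limma), its adjusted p was 0.9999, and with the session as a block it was -0.83. Within the first session it was -1.51, where it rests on subfertile bull 4, and within the later session -0.15.

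TIMM9's 2 probes overlap in sequence, as printed above, so they are not independent. The first read 0.00, 0.18 and 0.49 in high-fertile and 0.59, 1.25 and 0.70 in subfertile bulls. The second read -0.74, -0.16 and -0.15 in high-fertile and -0.07, 1.41 and 0.07 in subfertile bulls. Of 13 unnamed tested probes within 1000 bp, 12 were lower in the high-fertile mean, with a mean difference of -0.32 over all 13; over all tested probes 61.4% were lower. The mean of these neighbours overlapped between groups, at -0.01, 0.26 and 0.77 in high-fertile and 0.55, 0.72 and 0.71 in subfertile bulls.

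TOMM40 differed by 0.40 (SE 0.31) and TOMM5, a small subunit of the same channel, by -0.50 (SE 0.43). TOMM6, another small subunit with 4 tested probes, differed by -0.24 (SE 0.32), and TIMM44 by -0.22 (SE 0.40). The TOMM40 probe at chr18:52404306-52404365, which holds no CpG, read 1.23, 1.25 and 0.34 in high-fertile and -0.05, -0.04 and -0.77 in subfertile bulls. The groups did not overlap and the difference was 1.22 (SE 0.37, unadjusted p = 0.0079 in limma), with an adjusted p of 0.99998. IP DNA was well above background there on 3 of 6 arrays. The probe before it differed by 0.08 (SE 0.33). The next probe, which overlaps it and also holds no CpG, had groups that overlap, and its IP DNA was well above background on no array of the first session.

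TIMM22, the channel of the carrier import complex, had a probe at chr19:21894907-21894966 that read 1.06, 0.34 and 0.41 in high-fertile and 0.24, -0.23 and 0.30 in subfertile bulls, without overlap. IP DNA was well above background there on no array of the first session and on all 3 of the later one, so the values of high-fertile bulls 2 and 3 and of subfertile bull 4 are bounds. The gene's other probe differed by -0.23 (SE 0.30), with groups that overlap.

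**Figure D3:**
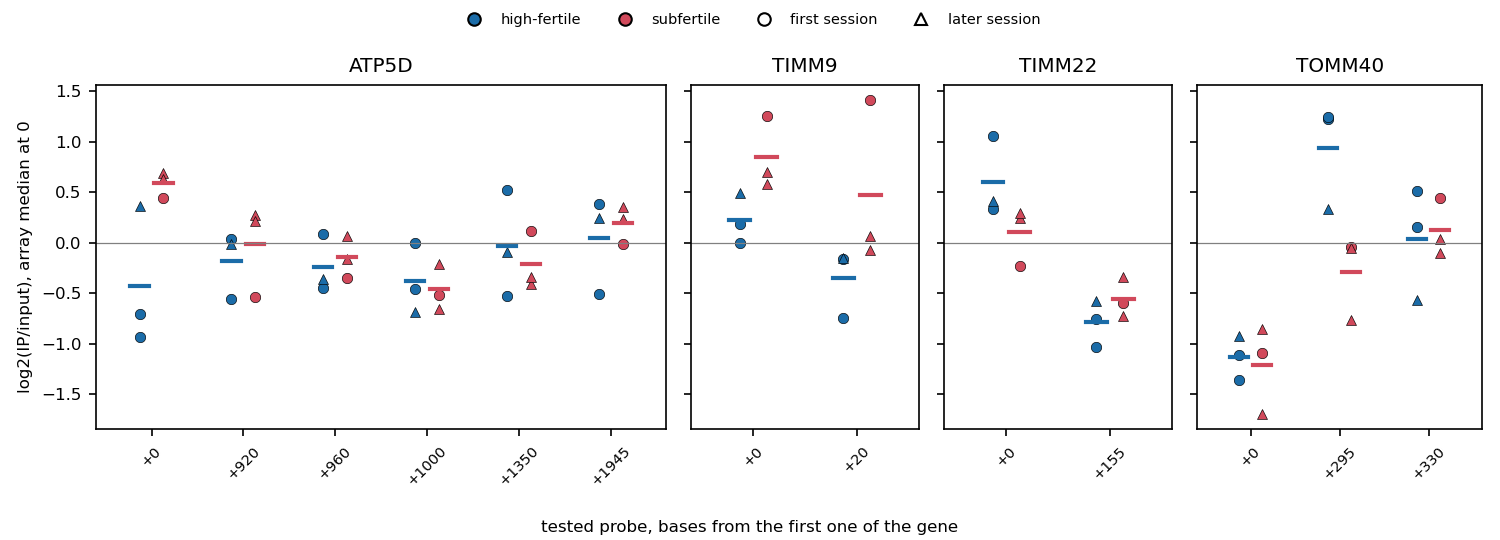
Level of each tested probe (log2(IP/input), array median at 0) of the 4 genes with a probe whose groups did not overlap, placed by bases from the gene's first tested probe; points are bulls, circles the first and triangles the later scan session, and bars the group means. The first ATP5D probe, both TIMM9 probes, the first TIMM22 probe and the middle TOMM40 probe part the groups, and the other probes of ATP5D, TIMM22 and TOMM40 do not.

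Over all 87 probes, 0 passed the adjusted p of 0.05, as did 0% of all probes tested. At an unadjusted p of 0.05 the count was 2 of 87, or 2.30%, against 1.83% of all probes. The groups did not overlap at 5 probes, or 5.75%, against 5.78%. Single probes of these genes thus parted the groups about as often as probes of the array at large.

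Whether the group difference of a gene itself differed between sessions was tested as an interaction, and 0 of 51 genes passed (background 0%), with 2 at an unadjusted p under 0.05, TIMM9 and COX6A1, against 4.15% of all genes. The fit has 2 residual degrees of freedom. Within the later session 0 of 51 genes passed, against 1.66% of all genes, and within the first session 0 of 51, against 0%. In each session 1 group is a single bull, whose spread is taken to be that of the others.

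**Figure D4:**
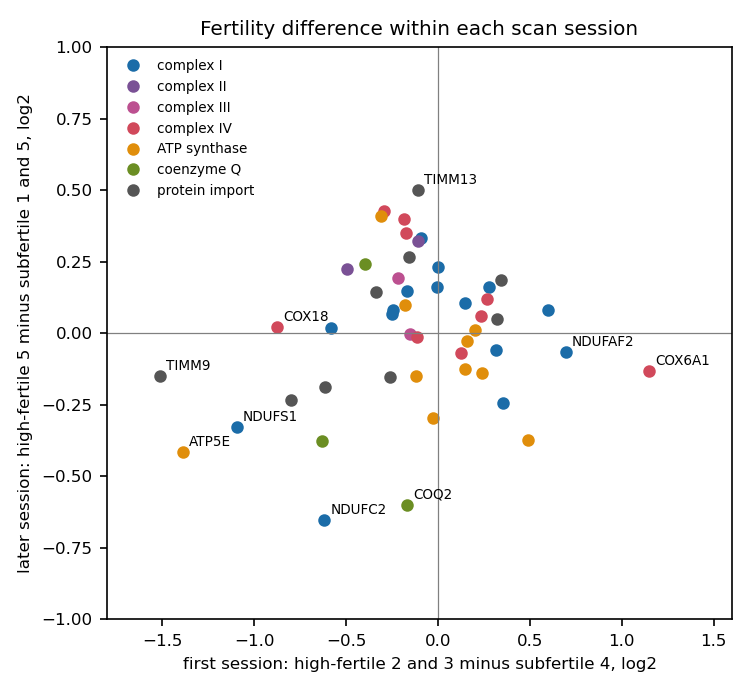
Difference between the groups within the first session (horizontal axis, high-fertile 2 and 3 minus subfertile 4) against that within the later session (vertical axis, high-fertile 5 minus subfertile 1 and 5), log2 scale, 1 point for each of 50 genes coloured by role; the axes differ in range. TIMM9 at -1.51 and -0.15 and COX6A1 at 1.15 and -0.13 lie far out on the first axis and near 0 on the second.

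Changes with scan session passed the test at some genes. In limma's fit with session and group as terms, 8 of 51 genes passed an adjusted p of 0.05, or 15.7%, against 19.8% of all genes. Which share was higher depended on the setting: with normexp it was 37.3% of members against 32.7% of all genes, and with both channels well above background 40.0% against 35.1%. In the later session 4 genes were higher (7.84%, background 7.25%) and 4 lower (7.84%, background 12.5%). The median change between sessions was 0.15 over the 51 genes, against 0.01 over all genes. The count depended on single arrays: without high-fertile bull 5 or without subfertile bull 4 the count was 0, and it was 3 without subfertile bull 1 and 2 without subfertile bull 5. Leaving out high-fertile bull 2 gave 14 and leaving out high-fertile bull 3 gave 10. The count over all genes moved alike, to 0 of 4290 in the first 2 of these fits and then to 327, 186, 1354 and 905.

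The lower genes each rest on 1 probe. COQ2 was 1.08, 1.003 and 1.21 in the first session (high-fertile 2 and 3, subfertile 4) and -1.55, -0.54 and -1.35 in the later one (high-fertile 5, subfertile 1 and 5). Its change was -2.37 (SE 0.30, limma adjusted p = 0.0105). ATP5B was 1.01, 0.61 and 1.12 against -0.20, -0.80 and -0.43 in the same order, a change of -1.37 (SE 0.29, limma adjusted p = 0.0229). Both probes hold no CpG, as the printed sequences show. IP DNA of COQ2 was well above background on 3 of 3 arrays of the first session and on 2 of 3 of the later one. For ATP5B it was so on 2 of 3 arrays of the first session and on 3 of 3 of the later one. Each change thus rests partly on a bound.

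The other 2 genes called lower are not measured on both sides. UQCRFS1, whose probe also holds no CpG, read 1.14, 0.53 and 1.05 in the first session and -0.85, -0.94 and -1.16 in the later one. Its IP DNA was well above background on no array of the first session and on 2 of the later one. ATP5E read -1.79, -0.79 and 0.10 against -2.96, -2.64 and -2.44, with IP DNA well above background on no array. For both genes the size and the direction of the change are not bounded, and no fold is given.

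The higher genes held 2 or more CpGs per probe. COX6B2, with 3 probes, was -0.58, -0.66 and -0.50 in the first and 0.57, 0.61 and 0.57 in the later session, a change of 1.14 (SE 0.22, limma adjusted p = 0.0180). Its sessions were parted by far more than the spread within either. NDUFV1, the subunit of complex I that binds NADH, was -0.06, -0.46 and -0.26 against 0.90, 0.76 and 0.72, a change of 1.08 (SE 0.24). COX7A2L, a factor for joining complexes III and IV, was -1.20, -0.61 and -1.14 against 0.16, 0.10 and 0.09, a change of 1.15 (SE 0.26). COX19, a copper-handling factor for complex IV, was -0.39, -0.62 and -0.33 against 0.66, 0.48 and 0.14, a change of 0.91 (SE 0.26, limma adjusted p = 0.0499). NDUFV1, COX7A2L and COX19 were chosen for naming after their values were seen.

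CpG content moved with the session as well. Of the 87 tested probes, 14 held no CpG, or 16.1%, against 4.22% of all tested probes, and 41.4% held 3 or more, against 57.7%. The median change from the first to the later session was -0.63 at probes without a CpG, 0.42 at those with 1 or 2 and 0.27 at those with 3 or more; over all tested probes it was -0.07, 0.23 and 0.32. Of the 14 probes without a CpG, 2 were higher in the later session, or 14.3%, against 45.7% of all tested probes without a CpG. IP DNA was well above background at 69.0% of the spots of these 14 probes. The share was 85.1% for member probes with 1 or 2 CpGs and 88.4% for those with 3 or more. Over all tested probes the shares were 80.0%, 84.9% and 86.5% for no CpG, 1 or 2 and 3 or more.

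Input signal moved with CpG content. Its median was 9.34 on the log2 scale for member probes without a CpG, 10.61 for those with 1 or 2 and 11.03 for those with 3 or more. Over all tested probes it was 10.09, 10.53 and 10.72, so the members' probes without a CpG were dimmer than such probes at large. Across the 87 probes, Spearman's rho of level with CpG count was -0.40, -0.23 and -0.25 on the arrays of the first session (high-fertile 2, high-fertile 3, subfertile 4) and 0.19, 0.16 and 0.13 on those of the later one (high-fertile 5, subfertile 1, subfertile 5). With input signal rho was -0.44, -0.57 and -0.50 against 0.39, 0.22 and 0.26 in the same order. Input is the denominator of the level, so rho with input signal is partly built in, towards values below 0. Over all 110771 tested probes rho with CpG count stayed below 0, at -0.15, -0.18 and -0.16 against -0.05, -0.03 and -0.06. With input signal it was -0.18, -0.38 and -0.25 against 0.17, 0.09 and 0.04 over all tested probes. These describe probes that share arrays and carry no p. The part of CpG content, input signal or IP yield in the session change was not tested.

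**Figure D5:**
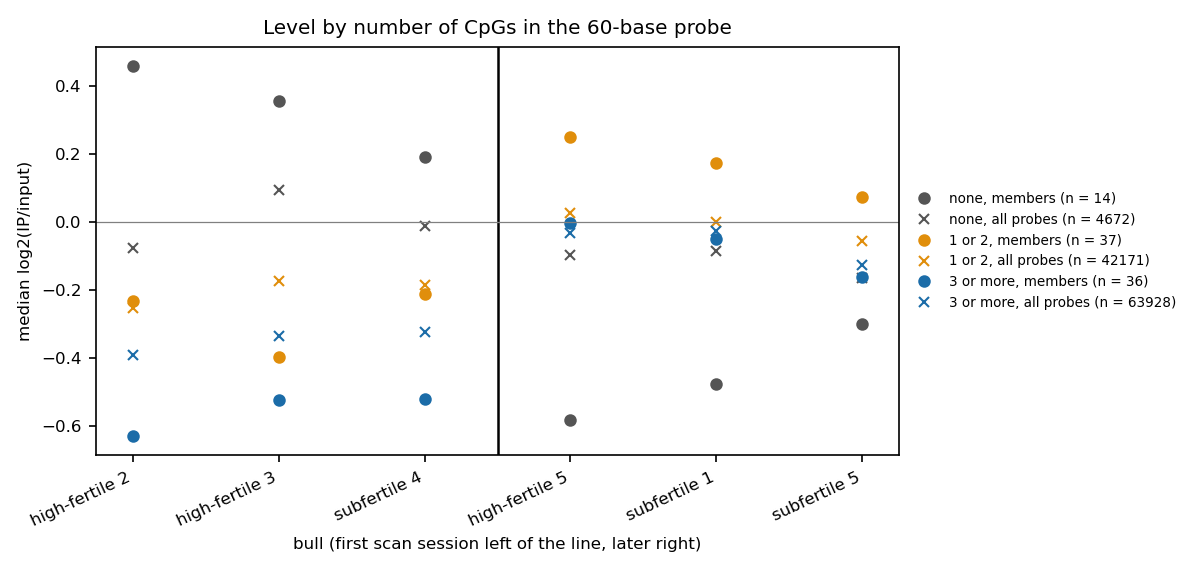
Median level (log2(IP/input), array median at 0) of tested probes with no CpG, with 1 or 2 and with 3 or more, in each bull; filled circles are probes of the respiratory chain and import genes and crosses all tested probes, with the number of probes in the legend. The median of the 14 member probes without a CpG lies above 0 in the 3 bulls of the first session (0.46, 0.36 and 0.19). It lies below 0 in those of the later one (-0.58, -0.48 and -0.30).

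Unnamed probes close by gave a further reading of the same regions. For the 30 genes with at least 3 tested neighbours within 1000 bp, gene and neighbour values correlated across genes at r = 0.74 for the level, 0.73 for the change between sessions and 0.38 for the fertility difference. They share fragments and arrays. NDUFV1 and COX7A2L had neighbours that were higher in the later session by 1.32 (6 probes) and 1.13 (11 probes) on average, and COX6B2 by 0.70 (10 probes). No tested neighbour was found for ATP5B, COQ2 or UQCRFS1.

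Other genes of energy metabolism, outside the name rule, numbered 63 on the array from a list of 103, and 33 were tested. None passed in the fertility comparison over all bulls, 16 differences lay above 0 and 17 below, and 1 had an unadjusted p under 0.05. That gene was ACAD9, a complex I assembly factor, at 0.64, 0.50 and 0.43 in high-fertile and -0.89, -0.41 and -0.54 in subfertile bulls. IP DNA of ACAD9 was well above background on 2 of 3 high-fertile arrays and on 1 of 3 subfertile arrays, so its levels are partly bounds. Its difference was 1.14 (SE 0.28, unadjusted p = 0.0041 and adjusted p = 0.9999 in limma) from 1 probe, and 1.06 with the session as a block. MFN2, which fuses outer membranes, differed by -0.82 (SE 0.39), and the matrix chaperone HSPA9 by -0.51 (SE 0.30). Within the first and the later session the differences were -1.15 and -0.09 for MFN2 and -0.86 and -0.24 for HSPA9. For ACAD9 they were 0.98 and 1.15. In all 3 genes the groups did not overlap, or 9.09% of the 33, against 3.87% of all genes. By session 8 of the 33 passed, or 24.2% against 19.8% of all genes, 2 of them higher (background 7.25%) and 6 lower (background 12.5%) in the later one.

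As a check of the labelled cell type, regions marked on the maternal copy should be low in sperm and those marked on the paternal copy high. SGCE, with a maternal mark, averaged -0.74 over 6 probes, but PEG10 averaged 0.02 over 21, IGF2R 0.28 over 3 and PLAGL1 -0.24 on 1 probe. IP DNA of PLAGL1 was well above background on no array of the first session and on 2 of the later one. Of paternally marked genes, H19 averaged 0.05 on 1 probe, RTL1 0.08 over 11, MEG3 -0.09 over 2 and RASGRF1 -0.15 over 7. The median of all genes tested was -0.14, and the maternally and paternally marked genes overlapped in level. The probes carry no feature class, so it is not known whether they lie in the marked regions.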

How the data were processed

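The deposited scanner tables of 6 arrays, 1 per bull, hold spot intensity on a linear scale, which Agilent Feature Extraction (version 10.7.3.1) had detrended and dye-normalized with a linear method, per the file headers. The header of subfertile bull 1 names a CGH protocol and the others a ChIP protocol. Their deposited log10 ratio divides the red IP signal by the green input signal. The deposited series table holds that ratio on the log2 scale, uncentred, as a match with the scanner values showed. Flags for signal above background and for non-uniform spots are also the authors' deposited values. Gene names stand in 3 of the 6 files and were carried to the others through identical probes.

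From the processed signals log2(IP/input) was computed and centred on each array's median over non-control probes. Tested probes had input well above background and no non-uniformity flag on all 6 arrays. Gene means and probes were tested in R 4.3.3 by lmFit and eBayes of limma 3.58.1. The tests were 2-sided, p-values were adjusted over all genes or probes tested by the Benjamini-Hochberg method, and the threshold was 0.05. Files were read with data.table (version 1.17.8) and plots drawn with matplotlib 3.10.9. Scan session, from the header dates, was fitted with fertility group as a second term, and the scripts were tested on simulated data. The number of arrays limits precision, and n is the number of bulls.

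Members and gene lists were chosen with earlier results of these data known. The text names, per role, up to 3 genes by smallest p in the fertility test; genes whose groups do not overlap; genes with at least 3 tested probes; the 4 highest and 4 lowest levels; and the 5 smallest session p-values. Of the genes this rule names, 1 is not reported here and not drawn, though it is included in the counts and medians. Of the 77 names, 41 stood as symbols among the RefSeq genes of assembly NDDB_SH_1, used for names only. Alternatives were normexp background correction with offset 50, the series table, other centring, other signal filters, session or slide as a block, each session alone, the probe median, at least 3 probes per gene and leaving out each bull. The session fits without each bull and with both channels above background were added after seeing the data.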

Additional observations from a re-analysis of the deposited data

How the results depend on the processing

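The number of genes and of probes called between the fertility groups was 0 under every alternative run, including each bull left out, and the members' median level differed from that of all genes by -0.052 to -0.015 under normexp, other centring and no filter. The calls rest on 3 bulls a group, and the differences of single genes were mostly smaller than their errors, so their signs were not stable. Of the differences named, 37 values under other settings turned sign, none of them past the threshold; the cause was not tested. With session as a block these were COQ2 at -0.38, COX4I2 at 0.11, COX4NB at 0.068, NDUFA13 at 0.13, TIMM44 at 0.053 and UQCRFS1 at -0.010. Within the earlier session alone they were ATP5B at -0.31, COQ2 at -0.17, NDUFA13 at 0.15, NDUFB9 at -0.093, SDHAF2 at -0.11 and UQCRFS1 at -0.21. Within the later session alone they were ATP5F1 at -0.026, ATP5I at 0.098, COQ10B at 0.24, COQ2 at -0.60, COX18 at 0.021, COX4I2 at 0.40, COX4NB at 0.43, COX6A1 at -0.13, NDUFA13 at 0.11, NDUFS3 at 0.080, NDUFS7 at 0.016, SDHAF1 at 0.23, TIMM44 at 0.26 and TOMM6 at 0.14. Without a filter on input signal they were COQ4 at 0.32, COX18 at 0.089, COX4NB at 0.092 and NDUFC2 at 0.25. With normexp they were ATP5E at 0.27, ATP5F1 at -0.071 and COX4NB at 0.016. Centring on the tested probes gave COX4I2 at 0.014 and COX4NB at 0.044, the probe median COX4I2 at 0.0076, and both channels above background COX4I2 at 0.11. Leaving out 1 bull at a time, the difference ran from -0.71 to 0.70 for ATP5E, -0.034 to 0.11 for ATP5F1, -0.16 to 1.27 for COQ2, -0.32 to 0.16 for COX4I2, -0.25 to 0.30 for COX4NB, -0.020 to 0.59 for COX6A1, -0.35 to 0.068 for NDUFA13 and -0.57 to 0.049 for TIMM44.

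The count of genes called by scan session was 8 (4 higher and 4 lower in the later session), and 19 with normexp (15 higher, 4 lower), 22 of 77 without the filter (3 higher, 19 lower) and 15 without fertility group as a term (10 higher, 5 lower). Over all 4290 genes it was 848, 1404 with normexp and 1201 without fertility group; without the filter it was 2793 of 7932. With each bull left out in turn the members' count ran from 0 to 14. With both channels well above background it was 12 of 30, of which 11 were higher in the later session. Centring on the tested probes gave 9, with 3 higher and 6 lower, and moved the median session change of all genes to -0.23, from 0.01. The 8 session changes kept their sign under each setting run, and COX19 missed the threshold with that centring (adjusted p = 0.0913 in limma) and without the filter (adjusted p = 0.0543 in limma). No paired analysis was possible because the labels give no pairing of bulls. The replicate number 5 that both groups share names different bulls.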
